A study of Anser anser with 2 samples.

Results

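The miR-15 and miR-16 family was examined in 2 small RNA libraries of goose liver, 1 overfed and 1 control. Members were the names miR-15, miR-16, miR-195 and miR-497 with any letter, arm or star, whatever species the reference name came from. They made up 9 of the 1196 mature miRNAs in the tables, read under 21 listed names in 97 distinct read sequences (tags) in the overfed and 82 in the control library. Both groups were 90-day-old male geese of the Landes breed, and 60 geese entered the study. Overfed geese had a carbohydrate-rich diet for 21 days, with 3353 kcal, 76 g of protein and 15 g of fat per kg, and their liver is described as fatty. The control group was fed at will on a basal diet with 171 g of protein and 2873 kcal per kg, and their liver is described as normal. The labels do not say how many birds each library holds. Each group had 1 library, so no difference has a replicate check or a test, and the exact 95% intervals below cover counting error only. Levels are in reads per 1000000 listed miRNA reads (RPM).

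miRNAs of this family share the seed, bases 2 to 8 of the mature strand, with which a miRNA pairs to its target mRNAs. In mammals they are known to repress genes that drive the cell cycle, such as CCND1 and CCNE1, and the survival gene BCL2, and the loss of miR-15a and miR-16 in human chronic lymphocytic leukaemia made them known as tumour suppressors. In rat hepatic stellate cells, miR-15b and miR-16 were linked to BCL2 and cell death. The genes lie in pairs of a miR-15 and a miR-16, 1 such pair within the SMC4 gene, and miR-195 lies next to miR-497. Each hairpin can give a mature strand from its 5′ arm (5p) and another from its 3′ arm (3p, or star in older names).

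The reference sequences to which most family reads were matched are shown to make visible which bases separate the members. Capitals mark the seed, and T stands for U as in the deposited tables. The prefix gives the species of the reference (gga chicken, xtr Xenopus, dre zebrafish, oan platypus), since the tags were matched to miRNAs of other species. Among references not shown, a dog miR-15b of 20 nt had the most reads, 164 overfed and 101 control.
xtr-miR-16c: tAGCAGCAcgtaaatactggag
gga-miR-16: tAGCAGCAcgtaaatattggtg
gga-miR-15b: tAGCAGCAcatcatggtttgca
dre-miR-15b: tAGCAGCAcatcatggtttgta
oan-miR-15c: tAGCAGCAcatcatggtttgt
gga-miR-15a: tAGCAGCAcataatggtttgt
All of these carry the seed AGCAGCA. Counted from 1 at the 5′ end, the miR-16c reference differs from that of miR-16 by T17C and T21A. The chicken miR-16 and miR-15b references differ more, by G10A, A12C, A14T, T15G, A16G, G19T, T21C and G22A from miR-16 to miR-15b. The chicken miR-15a and miR-15b references differ by C12A and C21T from miR-15b to miR-15a. The zebrafish miR-15b and platypus miR-15c references differ from chicken miR-15b by C21T alone, so reads of 20 nt or fewer cannot tell them apart.

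The family was a minor part of the liver profile. It had 1147 reads in the overfed and 816 in the control library, which is 0.0118% and 0.00889% of listed miRNA reads. As the listed family mir-15 it stood 38th in the overfed and 37th in the control library among 298 families. miR-122, the miRNA that marks hepatocytes, held 74.4% of overfed and 72.7% of control reads.

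By listed name, miR-16c, a lettered relative of miR-16, was the most abundant member, followed by miR-16-5p, miR-15b-5p and miR-15a-5p. miR-16c had 449 reads (46.1 RPM) in the overfed library, against 318 reads (34.6 RPM) in the control library, a log2 ratio of 0.41 (95% interval 0.20 to 0.62). miR-16-5p had 264 reads (27.1 RPM) in the overfed library and 194 reads (21.1 RPM) in the control library, a log2 ratio of 0.36 (0.09 to 0.63). The order of these members was the same in both libraries, and each was higher in the overfed one.

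miR-15b-5p, the partner of a miR-16 in the SMC4 pair, had 214 reads (21.98 RPM) in the overfed library and 160 reads (17.4 RPM) in the control library, a log2 ratio of 0.33 (0.03 to 0.64). miR-15a-5p had 143 reads (14.7 RPM) in the overfed library and 86 reads (9.37 RPM) in the control library. Its log2 ratio of 0.65 (0.25 to 1.05) was the highest of these 4, and the intervals of all 4 overlapped. Within a library, the counting intervals of miR-16-5p and miR-15b-5p overlapped in both, while miR-15a-5p lay below and miR-16c above them.

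**Figure D1:**
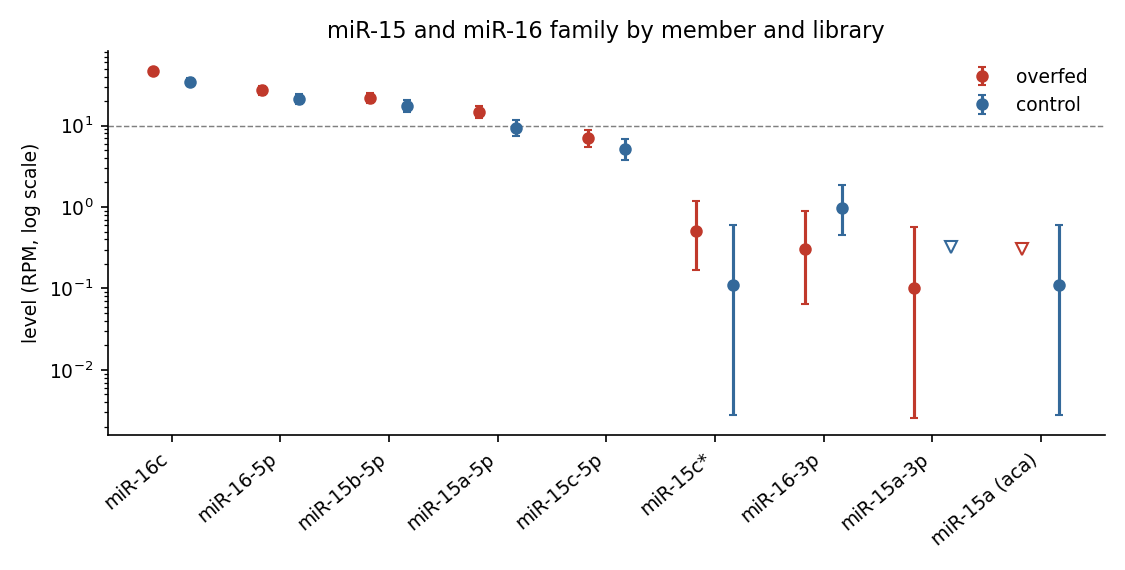
Level of each of the 9 family members in RPM (log axis) in the overfed (red, left) and control (blue, right) library; points are single libraries, bars exact 95% counting intervals, open triangles the limit that a count of 0 allows (3 counts), and the dashed line marks 10 RPM. 4 members lie above 10 RPM in the overfed library, from 14.7 to 46.1 RPM, and each is lower in the control library.

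The family total was 118 RPM in the overfed and 88.9 RPM in the control library, a log2 ratio of 0.41 (0.28 to 0.54), or 1.325 times higher. The miR-15 reads together were at 44.3 RPM in the overfed and 32.1 RPM in the control library (log2 ratio 0.46, 0.24 to 0.68). The miR-16 reads together were at 73.5 RPM in the overfed and 56.8 RPM in the control library (0.37, 0.21 to 0.54). The intervals of the miR-15 and miR-16 reads overlapped.

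The members were read against the 143 miRNAs whose mean level was 10 RPM or more. In the overfed library 16.8% of the 143 were higher by 1.5 times or more, with an interval that excluded 1, and 1 of the 4 members of that level, miR-15a-5p, was among them. A further 10.5% were lower by as much, and none of the 4 members was. Past 2 times, 6.99% were higher and 1.4% lower, and again none of the 4 members was. An interval wholly above 1, whatever the size, was found for all 4 members and for 44.1% of the 143, and one wholly below 1 for 32.2% of the 143 and 0 members. The median log2 ratio was 0.39 over the 4 members and 0.10 over the 143. miR-15a-5p was above 10 RPM only in the overfed library, and the members share a library, so their counts are not separate evidence.

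The size of the difference depended on the scaling. With edgeR's TMM factors all log2 ratios were lower by a constant, so that the family total stood at 0.17 (0.04 to 0.30). All 4 members were still above 0, but only miR-15a-5p had an interval wholly above 0, against 20.3% of the 143 miRNAs. The intervals of 67 of the 143 lay wholly below 0. Past 1.5 times, TMM factors gave 16 higher and 27 lower miRNAs, in place of 24 higher and 15 lower. With DESeq2's factors the interval was above 0 for 3 of 4 members, against 35.7% of the 143.

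**Figure D2:**
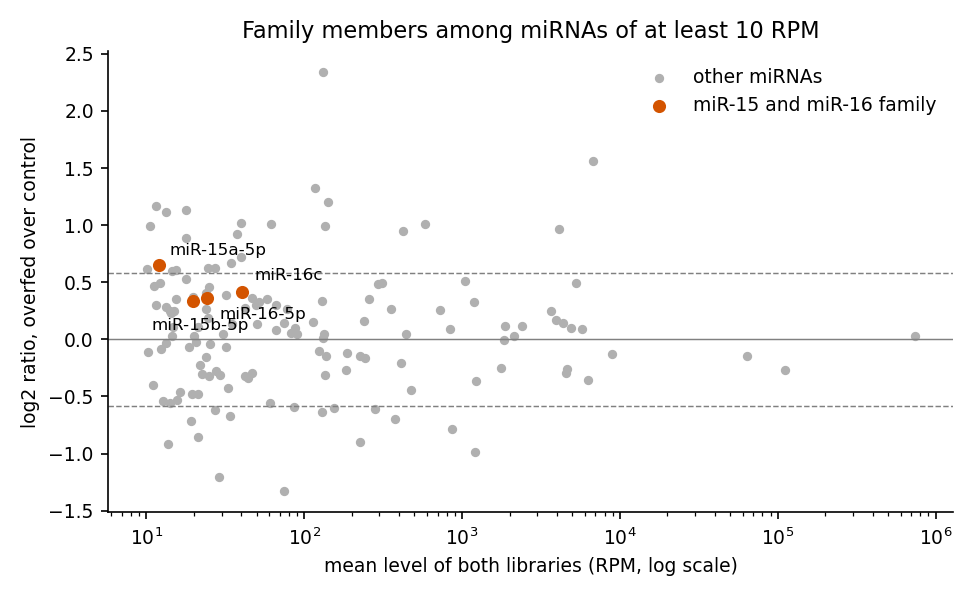
Log2 ratio of RPM, overfed over control, against the mean level of both libraries (log axis) for 143 miRNAs of at least 10 RPM; orange points are the 4 family members, grey points the others, and dashed lines mark 1.5 times. The members lie between 0.33 and 0.65, inside the cloud of the others, and only miR-15a-5p is past the upper dashed line.

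The 5 members below 10 RPM in both libraries were miR-15c-5p, a single read named miR-15a whose reference is from a lizard, and 3 minor strands. miR-15c-5p had 68 reads (6.98 RPM) in the overfed library and 47 reads (5.12 RPM) in the control library, a log2 ratio of 0.45 (-0.11 to 1.02). Of these, 62 overfed and 36 control reads were of 20 nt, which cannot tell miR-15c from miR-15b, so this level follows the matching of read lengths to names. No read was listed for miR-195 or miR-497 in either library, which allows up to 0.308 RPM in the overfed and 0.327 RPM in the control library (3 counts each).

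Nearly all family reads came from the 5′ arm. The 3p and star strands had 9 of 1147 reads in the overfed library, 0.785% (exact 95% interval 0.359% to 1.48%), and 10 of 816 in the control library, 1.23% (0.589% to 2.24%). miR-16-3p had 3 overfed and 9 control reads, the star strand of miR-15c had 5 overfed and 1 control reads, and miR-15a-3p had 1 overfed and 0 control reads. Of all miR-16 reads, miR-16c included, the minor strand held 0.419% in the overfed (0.0865% to 1.22%) and 1.73% in the control library (0.793% to 3.25%). Of all miR-15 reads it held 1.39% in the overfed (0.513% to 3.01%) and 0.339% in the control library (0.00858% to 1.87%). The shares thus went opposite ways, the intervals of the libraries overlapped in each case, and the difference was not tested. References for miR-16-3p and the miR-15c star strand are shown, since their seeds (capitals) differ from that of the 5p strands.
hsa-miR-16-1-3p: cCAGTATTaactgtgctgctga
oan-miR-15c*: cAGACCATtctgggctgcctca

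The family as a whole was read mostly in short forms, and miR-16c gave the largest part of them. Reads of up to 20 nt were 66.8% of family reads in the overfed library (64.0% to 69.5%) and 63.8% in the control library (60.4% to 67.2%). Over all listed miRNA reads the same share was 5.29% in the overfed and 4.15% in the control library. Among 65 listed families of at least 10 RPM, whose median share was 15.4% in the overfed and 13.3% in the control library, mir-15 ranked 9th in the overfed and 8th in the control library. Families with a larger share included mir-144, mir-27, mir-25 and mir-101, so a short profile was shared with other families. By listed name, miR-16c gave 380 of the 766 short overfed and 274 of the 521 short control reads of the family. Its short share was 84.6% in the overfed and 86.2% in the control library, 17th and 15th of the 143 miRNAs. The short share of miR-15b-5p was 76.6% in the overfed and 63.1% in the control library. That of miR-15a-5p was 65.0% in the overfed and 67.4% in the control library. miR-16-5p was unlike these, with 23.1% in the overfed and 23.2% in the control library, 67th and 61st of the 143.

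Because reads can be matched to a reference of another member, reads were also sorted by their first bases, up to the base that tells the references apart. 25 reads in each library listed as miR-16, mostly under a lamprey reference, carried the miR-16c sequence. They were mostly long reads. In the overfed library miR-16c had 1 read of 24 nt by listed name and 13 by sequence, and 350 of 18 nt either way. Sorted this way, miR-16c had 474 overfed and 342 control reads (log2 ratio 0.39, 0.18 to 0.59), and miR-16 had 229 overfed and 168 control reads (0.36, 0.07 to 0.66). The short share of miR-16c was then 80.4% in the overfed and 80.1% in the control library, lower than by listed name. miR-15a had 143 overfed and 86 control reads as before. miR-15b and miR-15c, taken as 1, had 282 overfed and 207 control reads (0.36, 0.10 to 0.63). The direction of each member was the same as by listed name. Taken as 1, miR-15b and miR-15c lay above miR-16 in both libraries, but the counting intervals of their levels overlapped. This change of order came from the pooling, since miR-15b-5p and miR-15c-5p by listed name hold nearly the same reads.

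The most common read length differed between members. miR-16c was most often read as 18 nt, miR-15a and the listed miR-15b as 19 nt, and miR-16 as 22 nt. Reads listed as miR-15c were mostly of 20 nt, a length that the listed miR-15b lacked. The 3 most common tags of each member of at least 10 RPM are shown with the seed in capitals, because they place the 3′ ends that set these lengths.
miR-16c, 18 nt: tAGCAGCAcgtaaatact
miR-16c, 19 nt: tAGCAGCAcgtaaatactg
miR-16c, 22 nt: tAGCAGCAcgtaaatactggag
miR-16-5p, 22 nt: tAGCAGCAcgtaaatattggtg
miR-16-5p, 21 nt: tAGCAGCAcgtaaatattggt
miR-16-5p, 19 nt: tAGCAGCAcgtaaatattg
miR-15b-5p, 19 nt: tAGCAGCAcatcatggttt
miR-15b-5p, 23 nt: tAGCAGCAcatcatggtttgcat
miR-15b-5p, 22 nt: tAGCAGCAcatcatggtttgta
miR-15a-5p, 19 nt: tAGCAGCAcataatggttt
miR-15a-5p, 21 nt: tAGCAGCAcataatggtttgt
miR-15a-5p, 20 nt: tAGCAGCAcataatggtttg

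The 18 nt tag of miR-16c was the most read tag of the whole family. It had 350 reads in the overfed library, 78.0% of miR-16c by listed name (73.8% to 81.7%), and 226 reads in the control library, 71.1% (65.7% to 76.0%). Reads of 18 nt with the miR-16 sequence numbered only 9 in the overfed and 7 in the control library, although the sequences differ by 1 base over that length. The full 22 nt tag of miR-16c had 29 overfed and 12 control reads (log2 ratio 1.19, 0.17 to 2.29), and the 19 nt tag 22 overfed and 29 control reads (-0.48, -1.35 to 0.36).

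The 18 nt form lies at the edge of what the tables hold. No tag in either library was shorter than 18 nt, and the lowest alignment score was 20. By the scoring that all rows follow, an 18 nt tag inside a 22 nt reference scores 24 and a 17 nt tag 19. Reads of miR-16c shorter than 18 nt were therefore not analysed here, and its level by listed reads is a lower limit if they exist. The label protocol isolated RNA of 20 to 30 nt on a gel. The most common listed forms of miR-16c, of 18 nt, and of miR-15a and miR-15b, of 19 nt, lie below that range. Whether they were recovered as well as longer reads was not tested.

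miR-16 was spread over several lengths. Its 22 nt tag, equal to the chicken reference, had 58 overfed and 46 control reads, and the tag without the last base had 48 overfed and 39 control reads. The 19 nt tag had 30 overfed and 28 control reads. None of these 3 ratios was beyond counting error, with log2 ratios of 0.25, 0.21 and 0.01.

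miR-15b was read mostly as the 19 nt tag, with 157 overfed and 93 control reads (log2 ratio 0.67, 0.29 to 1.06). The 23 nt tag, 1 base longer than the chicken reference, had 18 overfed and 21 control reads, while the reference sequence itself at 22 nt had 3 overfed and 1 control reads. The 19 nt tag of miR-15a was likewise its most common, with 66 overfed and 32 control reads (log2 ratio 0.96, 0.33 to 1.62), while its 20 nt tag had 18 overfed and 22 control reads (-0.37, -1.36 to 0.59).

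**Figure D3:**
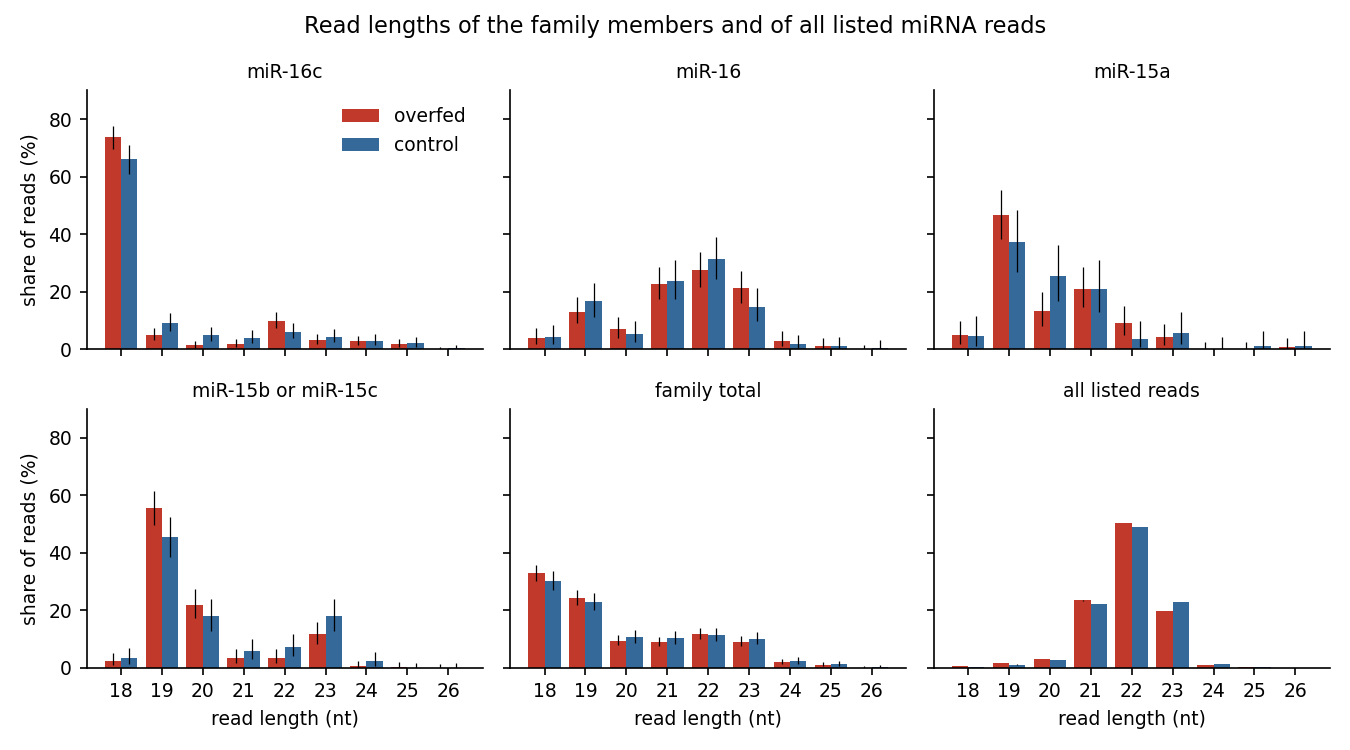
Share of reads (percent) by read length from 18 to 26 nt in the overfed (red, left) and control (blue, right) library for each member sorted by its first bases, for the family and for all listed reads; bars are single libraries and lines exact 95% intervals. miR-16c peaks at 18 nt, miR-15a and the pool of miR-15b and miR-15c at 19 nt and miR-16 at 22 nt, as do all listed reads.

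The 5′ end hardly varied among the listed reads. Of reads with a member's first bases, 99.5% in the overfed library (1122 of 1128) and 99.4% in the control library (798 of 803) began at the base before the seed. The spread of listed lengths was therefore a spread of 3′ ends, and the seed was whole in nearly all listed 5p reads. No tag was shorter than 18 nt, so an 18 nt form that lost a base at its 5′ end could not be listed.

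The difference between libraries was then split by length. Family reads of up to 20 nt were at 78.7 RPM in the overfed and 56.8 RPM in the control library (log2 ratio 0.47, 0.31 to 0.63). Family reads of 21 nt or more were at 39.1 RPM in the overfed and 32.1 RPM in the control library (0.28, 0.06 to 0.51). Reads of up to 20 nt were also more common in the overfed library over all miRNAs, with a log2 ratio of 0.35, and those of 21 nt or more were at -0.02. Relative to all listed reads of the same length class, the family stood at 0.12 (-0.04 to 0.28) for the short reads and at 0.30 (0.08 to 0.53) for the longer ones. The first of these intervals includes 0 and the second does not, and the 2 overlap.

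For miR-15b and miR-15c, short and longer reads went opposite ways. Their reads of up to 20 nt numbered 226 overfed and 138 control (log2 ratio 0.63, 0.31 to 0.94), and their longer reads 56 overfed and 69 control (-0.39, -0.92 to 0.14). Relative to all listed reads of up to 20 nt, the short reads stood at 0.27 (-0.04 to 0.59), an interval that includes 0. Relative to those of 21 nt or more, the longer ones stood at -0.37 (-0.90 to 0.16). On that scale miR-16 also lay on either side of 0, at -0.11 (-0.71 to 0.49) for short and 0.42 (0.08 to 0.77) for longer reads. miR-16c stood at 0.04 (-0.19 to 0.27) for short and 0.38 (-0.08 to 0.86) for longer reads. miR-15a stood at 0.24 (-0.24 to 0.74) for short and 0.77 (0.07 to 1.49) for longer reads. Among these intervals of miR-16c and miR-15a, only that of the longer miR-15a reads lay wholly above 0. The short share of miR-15b and miR-15c was 80.1% in the overfed library (75.0% to 84.6%) and 66.7% in the control library (59.8% to 73.0%). This gave an odds ratio of 2.01 (exact 95% interval 1.31 to 3.11). Over all listed reads that odds ratio was 1.29, and 96 of the 143 miRNAs, 67.1%, had a larger short share in the overfed library. For miR-16c the odds ratio was 1.02 (0.70 to 1.46), for miR-16 0.89 (0.55 to 1.45) and for miR-15a 0.90 (0.49 to 1.64). The intervals of miR-16c, miR-16 and miR-15a overlap that of miR-15b and miR-15c, and the difference between members was not tested. By listed name, miR-15b-5p had 164 overfed and 101 control reads of up to 20 nt, and 50 overfed and 59 control reads of 21 nt or more. Its log2 ratio among all listed reads of 21 nt or more was -0.31 (-0.88 to 0.26).

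The longer reads also separate the chicken miR-15b base from that of the zebrafish miR-15b and platypus miR-15c references at position 21. Reads with the chicken miR-15b base numbered 33 overfed and 39 control (log2 ratio -0.33, -1.04 to 0.38), and those with the other base 22 overfed and 28 control (-0.43, -1.31 to 0.42). Both kinds were present in each library. The reads too short to tell were 80.1% of the total in the overfed and 66.3% in the control library, and how they divide between the 2 is unknown.

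**Figure D4:**
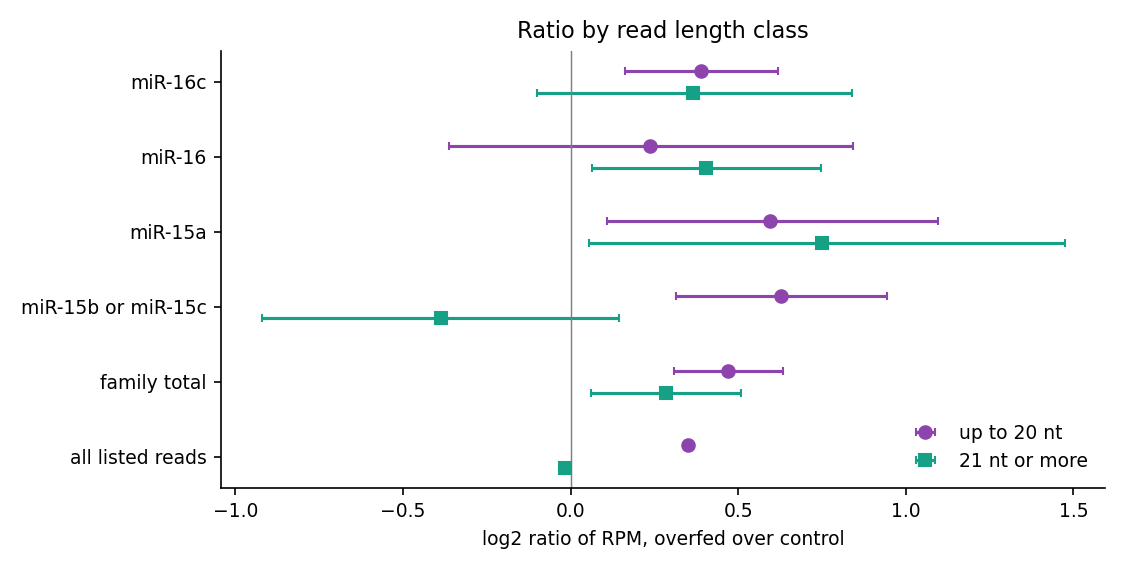
Log2 ratio of RPM, overfed over control, for reads of up to 20 nt (circles) and of 21 nt or more (squares), by member sorted by first bases, for the family and for all listed reads; bars are exact 95% counting intervals. For miR-15b and miR-15c the classes lie on either side of 0, at 0.63 and -0.39. The other members have both classes above 0 on this scale of all listed reads. The intervals of short miR-16 reads, 0.24 (-0.36 to 0.84), and longer miR-16c reads, 0.37 (-0.10 to 0.84), include 0.

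The last base of the longest reads was mixed. Of family reads of 23 nt or more, 47.6% ended in A in the overfed library (39.1% to 56.1%, 143 reads) and 43.1% in the control library (33.9% to 52.6%, 116 reads). T was the last base of 51.7% of such overfed and 56.0% of such control family reads. Over the pooled reads of all other listed miRNAs, 17.4% of such overfed and 19.6% of such control reads ended in A. T was the last base of 80.1% of these overfed and 78.3% of these control reads. Abundant miRNAs weigh most in this pool, and the share of each miRNA in it was not computed. Within the family, A was the last base of 59.3% of the long overfed and 67.7% of the long control reads of miR-16, and of 33.3% of the overfed and 28.6% of the control reads of miR-15b and miR-15c. Whether these bases are encoded in the goose precursors or added later was not tested.

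Of 9 other names known or listed for a like seed, 4 had reads. miR-424, miR-322, miR-503, miR-646 and miR-6838 had none in either library. miR-457, known from fish, had 1 overfed and 0 control reads, and miR-1907 had 4 overfed and 12 control reads. miR-103 and miR-107, regulators of insulin sensitivity in mice whose references carry the same core shifted by 1 base, were far more abundant, at 7973 RPM together in the overfed and 6202 RPM in the control library (log2 ratio 0.36, 0.35 to 0.38). miR-107 alone was at 0.50 (0.48 to 0.51) and miR-103 at -0.01 (-0.04 to 0.02). Tags with AGCAGCA exactly at bases 2 to 8 had 1170 overfed and 840 control reads under any name, of which 1127 overfed and 800 control reads had family names. All other names held 43 overfed and 40 control reads, of which 42 overfed and 39 control reads had miR-103 or miR-107 names. Most miR-1907 reads therefore did not carry AGCAGCA at these bases.

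Markers of the cell types a liver sample can hold were summed beside these values. Red cell miRNAs (miR-451 and miR-144) were at 318 RPM in the overfed and 360 RPM in the control library (log2 ratio -0.18), and the stellate or mesenchymal list was at 6025 RPM in the overfed and 7271 RPM in the control library (-0.27). Arms differed within both lists. The star strand of miR-144 was at 0.35 (0.01 to 0.70) and miR-144-3p at -0.31 (-0.43 to -0.20). miR-199a-5p was at 0.15 (0.03 to 0.28) and miR-199a-3p, most of the stellate or mesenchymal reads, at -0.29 (-0.31 to -0.27). The leukocyte list (miR-223 and miR-142) was at 122.9 RPM in the overfed and 106.7 RPM in the control library (0.20). Its markers differed, with miR-223-3p at 0.62 (0.35 to 0.90) and miR-142-5p, most of the list's reads, at 0.06 (-0.09 to 0.20). Endothelial miR-126 was at 95.5 RPM overfed and 87.0 RPM control (0.13, -0.004 to 0.27). Its arms went opposite ways, with miR-126-5p at 0.30 (0.14 to 0.47) and miR-126a-3p at -0.32 (-0.59 to -0.05). Markers of tissues outside the liver were at 882 RPM overfed and 823 RPM control for muscle, 2.46 RPM overfed and 1.42 RPM control for neurons, and 168 RPM overfed and 67.1 RPM control for pancreas. Of the pancreas list, miR-375 had 1635 overfed and 615 control reads, miR-217 had 1 read in each library and miR-216 was at 0. All other listed markers had reads. In whole liver, a change of cell numbers and of RNA per cell cannot be told apart, and the part of these cells in the family's values was not tested.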

How the data were processed

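RNA of 20 to 30 nt was isolated on a gel from 10 μg of total liver RNA and made into Illumina libraries, per the labels' protocols. For each library the authors deposited the read count of every distinct tag matched to a miRNA, with its best matching reference of any species. These counts were left as raw whole numbers by the authors. The deposited alignment score equals 2 per match, less 1 per mismatch and 3 per gap. The labels name no aligner, miRNA database or genome build. The library totals, 9737540 overfed and 9178938 control reads in 18072 and 17203 tags, hold only reads with a miRNA match. 1 read was 0.103 RPM in the overfed and 0.109 RPM in the control library.

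Tags were summed over species names of the same miRNA and arm; a name without a letter or arm joined one of the same number when an unbroken run of 18 or more bases was common to the references and left out no more than 2 bases of the shorter. Family members were found by listed name. Every member of at least 10 RPM in either library is named with its 3 most common tags; other tags and forms were chosen after their values were seen. Members, lists and alternatives were chosen with earlier results of these data known. Ratios have exact conditional binomial (Clopper-Pearson) 95% intervals, levels exact Poisson and shares exact Clopper-Pearson intervals, which cover counting error only, since reads carry no molecular identifiers. For 86 to 449 reads, the half-width of a ratio's interval was 0.21 to 0.40 log2 units. The script for ratios was tested on simulated counts. Alternatives were TMM and median-of-ratios factors, a total without miR-122-5p, tags without a mismatch, tags of at least 21 bases, 1 RPM added, assignment by seed and other minimums. Sequences are those of the deposited tables. Computations used Python 3.11.15, numpy 2.4.6, pandas 2.3.3, scipy 1.17.1, matplotlib 3.10.9, R 4.3.3, edgeR 4.0.16 and DESeq2 1.42.0.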

Additional observations from a re-analysis of the deposited data

How the results depend on the processing

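No paired analysis was possible because there was only 1 library per group, and no replicate could be left out. Sorting tags by first bases, tags of up to 20 bases, and length classes over all reads were chosen after seeing the data; seed alone cannot tell members apart, so it was applied to the family only. The family log2 ratio of 0.41 was 0.17 with TMM factors, a constant shift of -0.23, and 0.12 with tags of up to 20 bases scaled by such reads; under the other 8 settings it stayed within its counting interval. The 32 member ratios under alternatives rest on the same reads of 4 members, so they are not separate evidence. Of these 32, 27 stayed within their counting interval. Of the 28 with an interval of their own, 10 included 0: all 4 members with tags of up to 20 bases, 3 with TMM factors and 1 each with median-of-ratios factors (miR-15b-5p), tags without a mismatch (miR-16-5p) and tags of at least 21 bases (miR-15b-5p). With tags of at least 21 bases miR-15b-5p stood at -0.31, and the cause was not tested. The 39 miRNAs past 1.5 times in either direction became 63 without miR-122-5p in the total, 88 with no minimum and 15 with a minimum of 100 RPM, with more or fewer miRNAs compared. With tags without a mismatch, short reads were 72.9% of overfed and 69.1% of control family reads; the cause was not tested. The share of the minor arm stayed within its interval. Depth limits the members: with 143 overfed and 86 control reads, as for miR-15a-5p, the half-width of a ratio's interval was 0.40 log2 units.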
